A study of Mus musculus with 2 samples.

Results

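The histone cluster genes were taken as all symbols in the deposited gene list that begin with Hist and a cluster number from 1 to 4 followed by h. This rule found 67 of 31053 listed genes, 6 encoding linker histone H1 and 61 encoding the core histones, with 18 for H2A, 18 for H2B, 12 for H3 and 13 for H4. They were measured by droplet single-cell RNA sequencing of whole mouse uterus on gestational day 4, with 1 library from Mettl14 f/f tissue and 1 from Mettl14 d/d tissue. Mettl14 encodes a subunit of the methyltransferase that places N6-methyladenosine on RNA, f/f usually stands for floxed alleles and d/d for deleted ones. The deleting Cre line, the deleted exons, the strain, the age and the number of animals behind each library are not given in the sources used here. With 1 library of each genotype, genotype and library cannot be told apart, no test was made, and each difference is one between these libraries.

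Core histones H2A, H2B, H3 and H4 form the octamer around which DNA is wrapped, and linker histone H1 binds the DNA that enters and leaves it. Most cluster genes are replication-dependent. Their RNA accumulates while DNA is copied and ends after a conserved stem-loop that is bound by SLBP, without the poly(A) tail of other messenger RNAs. Some members also give polyadenylated RNA that reaches past the stem-loop, as do the replacement variants outside the clusters, which are made throughout the cell cycle. In the uterus of early pregnancy the stroma proliferates ahead of decidualization, while the luminal epithelium has usually left the cycle.

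The stem-loops of the members that carry most of the results are shown because the counting chemistry primes on poly(A), so an RNA that ends there is captured poorly. They were read from the GENCODE transcripts of the mouse reference, with the stem and loop in capitals and the flanking transcript in lower case, 5′ to 3′.
Hist1h1c: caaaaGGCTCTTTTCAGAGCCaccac
Hist1h2ap: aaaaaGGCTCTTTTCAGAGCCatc
Hist1h2ae: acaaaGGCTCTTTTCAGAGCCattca
Hist3h2a: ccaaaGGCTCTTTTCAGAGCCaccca
Hist1h3c: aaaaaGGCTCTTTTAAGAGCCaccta
Hist1h4h: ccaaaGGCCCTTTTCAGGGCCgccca
Hist1h4d: ccaaaGGCCCTTTTCAGGGCCactac
Hist1h4i: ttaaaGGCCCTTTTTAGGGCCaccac
The H1, H2A and H3 members shown share the same stem, the H4 members have a stem of their own, and Hist1h3c and Hist1h4i differ from the others of their stem in the loop. A match to the histone stem-loop consensus was found in 46 of the 67 members and in 86 of 55450 genes with transcripts (0.155%). In 23 members the annotated transcript went more than 100 bases past the stem-loop, and these held 44.7% of the members' UMIs. In the other 23 matched members it ended within 100 bases of it, and these held 27.9%. The 21 members without a match held 27.4%, among them Hist1h2bc with 7959 UMIs and Hist1h1b with 1264. Only annotated transcripts were searched, some of them short, such as Hist1h4k (312 bases), Hist1h2bn (381) and Hist1h1b (743). A missing match thus does not show that a gene lacks the stem-loop.

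Near-identical copies limit what the values of single members mean. Of the 67 members, 61 shared at least 1 stretch of 90 bases with another gene. Hist1h2ap (chr13:21833026-21833507, minus strand, ENSMUSG00000094777) has a transcript of 482 bases that ends 3 bases after the stem-loop, and 92.4% of its 90-base windows occur in other genes. Hist1h2ae (chr13:23570517-23571220, minus strand, ENSMUSG00000069272) is a transcript of 704 bases that ends 151 bases after the stem-loop, with an AATAAA signal 22 bases before its end and 31.9% of its windows shared. Hist1h2bc shared 26.1% of its windows and none of its last ones, and Hist1h1b shared none. Hist1h1e overlaps Hist1h2be on the same strand, and Hist3h2a overlaps Trim17, so a read from the shared stretch does not tell the genes of a pair apart. Values of Hist1h2ap and of other members whose last windows are shared are therefore uncertain as values of 1 gene.

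The members lie in 4 blocks of the GRCm38 genome, with 54 genes on chromosome 13 between positions 21715763 and 23934851, 10 on chromosome 3, 2 on chromosome 11 and 1 on chromosome 6. All 6 linker genes are in the chromosome 13 block. RefSeq promoter windows (GRCm38.p6, 250 bases before to 50 after the start) matched 61 members. Those of Hist1h1b, Hist1h2ap and Hist1h2ae, which are described repeatedly, are printed with matches to the searched motifs in capitals, on either strand.
Hist1h1b, chr13:21780576-21780875, minus strand: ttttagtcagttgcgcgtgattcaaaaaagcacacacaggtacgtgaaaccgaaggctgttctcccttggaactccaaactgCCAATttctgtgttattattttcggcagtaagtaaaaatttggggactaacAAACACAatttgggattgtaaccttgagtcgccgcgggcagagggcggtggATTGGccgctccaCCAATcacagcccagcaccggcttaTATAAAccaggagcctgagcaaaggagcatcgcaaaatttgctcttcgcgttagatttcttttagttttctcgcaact
Hist1h2ap, chr13:21833426-21833725, minus strand: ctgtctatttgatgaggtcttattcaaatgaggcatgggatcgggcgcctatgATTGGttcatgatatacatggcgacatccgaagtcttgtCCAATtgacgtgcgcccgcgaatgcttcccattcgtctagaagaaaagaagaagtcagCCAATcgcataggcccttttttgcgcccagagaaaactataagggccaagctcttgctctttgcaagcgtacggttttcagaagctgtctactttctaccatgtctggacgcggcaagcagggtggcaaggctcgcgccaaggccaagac
Hist1h2ae, chr13:23571171-23571470, minus strand: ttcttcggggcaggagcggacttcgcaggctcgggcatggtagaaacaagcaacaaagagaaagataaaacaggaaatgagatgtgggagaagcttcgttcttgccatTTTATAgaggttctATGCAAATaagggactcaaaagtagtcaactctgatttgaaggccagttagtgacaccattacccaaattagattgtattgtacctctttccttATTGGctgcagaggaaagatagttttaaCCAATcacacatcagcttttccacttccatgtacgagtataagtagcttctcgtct
CCAAT was found in 52 of the 61 windows (85.2%) and in 37.4% of all 32851 promoter windows of this length. All matched H1, H2A, H2B and H3 members held it, and 3 of 12 H4 members did. The octamer ATTTGCAT was found in 7 of 18 H2A and 6 of 16 H2B windows and in none of the H1, H3 or H4 windows, against 1.74% of all windows. The H1 box AAACACA stood in 4 of 5 H1 windows and in 7.18% of all, and TATAAA in 55.7% of members and 13.6% of all. The E2F forms TTTGGCGC and TTTCCCGC were found in 0 and 1 of the 61 member windows, against 0.514% and 1.07% of all windows. Both strands were searched, no motif contains another, and a match is a run of letters, not a shown site.

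The filters kept 7095 cells of the f/f library (median 6085 unique molecular identifiers, UMIs, per cell) and 5977 of the d/d library (median 5217). The libraries shared 8 cell barcodes, all among the kept cells. Cell classes were named from marker genes. Among the 11 classes with at least 30 cells of a library, the marker sum was highest in its own class for all lists in d/d. In f/f that held for all lists but those of stroma (10949 CPM, UMIs per 1000000 UMIs of the class, against 12929 in mesothelium) and blood endothelium (4898 against 4902 in lymphatic endothelium). The Mettl14 level was 14.5 CPM in f/f stroma against 2.46 in d/d stroma, 18.9 and 2.53 in smooth muscle, and 18.7 and 18.3 in blood endothelium. It is a 3′ tag count, and whether it lies within the deleted part is not known. Stroma was split by library in the clustering. Of 4707 f/f stromal cells, most lay in clusters 0, 1 and 5, and of 1705 d/d stromal cells 1120 lay in cluster 3, while clusters 4 and 12 held at least 50 cells of each library. Intervals at 95% follow the values below, and they cover counting error only.

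All kept cells held 41188 UMIs of the members, 26636 from the f/f library and 14552 from the d/d library, and 3 genes gave 50.4% of them. Hist1h2bc (H2B) had 7959, Hist1h2ap (H2A) 7117 and Hist1h2ae (H2A) 5663 UMIs. Of the 67 members, 42 had at least 100 UMIs, 21 had between 1 and 90, and 4 had none. Linker histones stood at 74.0 CPM in f/f and 48.0 in d/d, a log2 difference of -0.62 (-0.70 to -0.54). Core histones stood at 473 and 313 CPM, a difference of -0.60 (-0.63 to -0.57). The families did not share this difference. H2A was lower in d/d by a log2 difference of -1.19, H2B of -0.32 and H3 of -0.17, while H4 was higher by 0.31 (0.23 to 0.39). These sums over all kept cells mix the classes, whose shares differ between the libraries, so the classes are taken one by one.

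Levels of core histones per class covered a wide range. The lowest core value was 127 CPM (82.1 to 187) in f/f lymphatic endothelium, with an interval that overlapped those of lymphatic endothelium and pericytes of d/d and of macrophages or monocytes of both libraries, and f/f natural killer or innate lymphoid cells were highest at 2565 (2477 to 2655). Between them stood, for core histones, macrophages or monocytes at 219 (f/f) and 154 CPM (d/d), stroma at 338 and 274, smooth muscle at 395 and 337, epithelium at 485 and 443, dendritic cells at 564 and 264, pericytes at 617 and 199, and blood endothelium at 884 and 361. The intervals of d/d smooth muscle and f/f stroma overlapped, as did those of d/d stroma and d/d dendritic cells. Linker levels went from 29.1 CPM in d/d stroma to 479 in f/f natural killer or innate lymphoid cells. In each class with at least 100 cells in both libraries, core and linker sums were lower in d/d than in f/f by CPM, although in epithelium and in macrophages or monocytes the interval of the linker difference included 0. TMM scaling, which sets the libraries level by a trimmed mean over genes and adds between 0.04 (blood endothelium) and 0.46 (macrophages or monocytes) to each log2 difference, turned 3 of these sums. Under it the epithelial core and linker differences were 0.073 and 0.061 and the macrophage or monocyte linker difference was 0.040, while the core differences of macrophages or monocytes and smooth muscle came to -0.04 and -0.05.

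The classes differed in how many of their cells held RNA of dividing cells. Cells with at least 1 UMI of Top2a or Mki67, both expressed in dividing cells, were 15.6% of the stromal cells in f/f against 6.69% in d/d, 24.0% and 3.02% of pericytes, 39.8% and 14.6% of blood endothelium, 5.16% and 2.10% of smooth muscle and 48.3% and 55.1% of epithelium. In f/f epithelium all 86 such cells held Top2a and 6 held Mki67, while of 81 in d/d 72 held Top2a and 42 Mki67. Median depths of epithelium were high, at 9289 and 16171 UMIs. After thinning each cell to 2000 UMIs the stromal shares were 8.57% and 3.76%, beside 3.63% and 0.643% in smooth muscle, at median depths of 6598 and 6959 UMIs in stroma and 4119 and 5658 in smooth muscle. A core histone UMI was present in 34.5% (33.1 to 35.9) of thinned f/f stromal cells and in 23.1% (21.1 to 25.3) of those of d/d. Unthinned, the shares were 67.5% and 50.1%. A linker UMI was present in 6.35% and 4.33% of thinned and in 17.4% and 11.1% of unthinned stromal cells. Thinning left out 247 and 110 shallower stromal cells.

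Within a library, histone levels were higher in the cells with Top2a or Mki67 in stroma, pericytes and blood endothelium. A member or gene counts as measured with at least 50 UMIs over both groups of a comparison, and as higher or lower at a ratio of 1.5. In f/f stroma the core sum was 894 CPM in 733 cells with these UMIs and 196 in 3974 cells without, a ratio of 4.57. In d/d stroma it was 1565 CPM in 114 cells and 113 in 1591 cells, a ratio of 13.8. Linker histones had ratios of 6.15 and 12.3 in the same cells. Cells with Top2a or Mki67 were also deeper, with means of 9438 against 6765 UMIs in f/f and 12596 against 7274 in d/d. Both genes were found in 247 of the 733 f/f cells and in 56 of the 114 d/d cells. The groups of the libraries are thus not alike, and the part of this in the ratios was not tested.

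**Figure D1:**
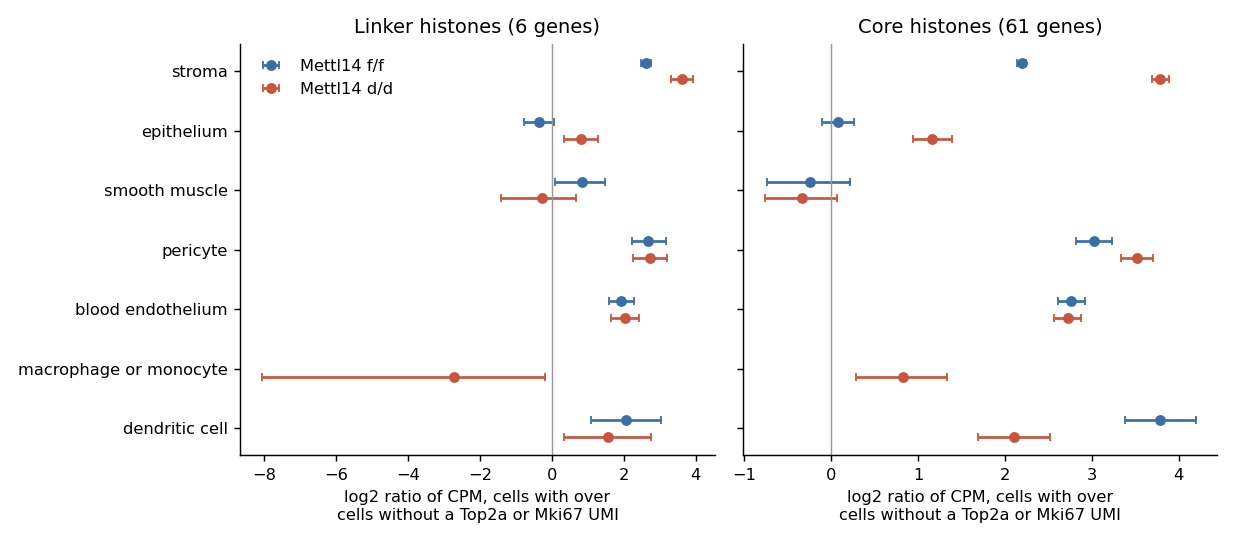
Log2 ratio of CPM of cells with over cells without a Top2a or Mki67 UMI (x axis) for the linker and core sums, by cell class (y axis) and library (colours), with 95% intervals as bars. The core ratio of stroma is 2.19 for f/f but 3.79 for d/d, while the smooth muscle intervals of the core sum include 0.

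Pericytes had core log2 differences between the cells with and without Top2a or Mki67 UMIs of 3.02 (f/f) and 3.52 (d/d), with linker differences of 2.69 and 2.74. Blood endothelium had core differences of 2.76 and 2.72 and linker differences of 1.93 and 2.03, close to each other across libraries. Pericytes had 6 of 6 measured members higher in f/f (9.82% of all genes) and 4 of 7 in d/d (18.7%), with 1 lower (23.6%). In f/f natural killer or innate lymphoid cells, 138 cells with these UMIs had 3389 CPM of core and 627 of linker histones, and 84 cells without had 363 and 84.2. Smooth muscle showed no such step in the core sum, with differences of -0.24 (-0.73 to 0.21) in f/f and -0.33 (-0.77 to 0.07) in d/d. Its linker sum differed by 0.83 (0.10 to 1.48) in f/f, on 21 UMIs in 23 cells, and by -0.27 (-1.41 to 0.66) in d/d. The smooth muscle split rested on few UMIs. Its 23 f/f cells held 20 Top2a and 8 Mki67 UMIs, while the 31 d/d cells held 27 and 8. Only 1 cell per library held both genes, so this split cannot decide whether dividing smooth muscle has such a step. The f/f epithelium showed none either, with a core difference of 0.08 (-0.11 to 0.26), although 86 of its 178 cells held a Top2a UMI. Mki67 was found in 6 f/f epithelial cells. In d/d epithelium, 72 of 147 cells held Top2a and 42 held Mki67, and the core difference was 1.16 (0.94 to 1.39). This step lay largely in 1 sub-cluster of 19 deep cells, all 19 with these UMIs, since without them the core difference was 0.30 (0.06 to 0.54) and the linker difference went from 0.80 to 0.12 (-0.38 to 0.63). Of the measured members, 0 of 3 were higher in f/f epithelium (4.69% of all genes) and 0 lower (6.63%), and in d/d 8 of 12 were higher (8.47%) and 0 lower (6.91%). Without the 19 deep cells 4 members of d/d epithelium were measured, of which 2, Hist1h4i and Hist1h2ae, were higher (403 of 6719 genes) and 0 lower (6.85%).

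Single members behaved differently in this split. In f/f stroma 22 of 27 measured members were higher in cells with Top2a or Mki67 and 2 were lower, where 6.59% of all measured genes were higher and 4.51% lower. In d/d stroma 11 of 13 were higher and 1 lower, beside 9.86% and 14.3% of all genes. Members share sequence and are not independent of each other, and a member low in all but one group can pass the minimum through that group alone, so these counts describe the measured members and not all 67.

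The members with the widest split in stroma came from several families. Hist1h3c (H3) stood at 12.3 CPM with and 0.335 without in f/f, a log2 difference of 5.20 (4.21 to 6.38), and 95 of its 96 d/d stromal UMIs were in cells with Top2a or Mki67. The linker genes Hist1h1a and Hist1h1b had differences of 5.05 and 4.77 in f/f, and Hist1h1b of 7.28 in d/d. Hist1h2ap and Hist1h2ae differed by 4.41 and 3.71 in f/f and by 7.06 and 7.34 in d/d. The linker gene Hist1h1d differed by 3.96 in f/f. In cells without Top2a or Mki67, each of these genes stood at 17.5 CPM or less in both libraries.

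A second set of members was not called higher in either stromal library, and 3 of them were called lower in 1 library. Hist1h2bc stood at 107 CPM with and 81.0 without Top2a or Mki67 in f/f stroma (log2 difference 0.40), and at 43.2 and 49.8 in d/d (-0.21, -0.61 to 0.17). Hist3h2a, an H2A gene of the small cluster on chromosome 11, had a difference of -0.08 in f/f but was the member called lower in d/d, at 4.87 CPM with and 15.4 without (-1.66, -2.99 to -0.58). Hist2h3c1 (-0.70) and Hist2h3c2 (-0.85) of the chromosome 3 cluster were those called lower in f/f, although their intervals included no difference, as did that of Hist2h2be (0.29). The linker gene Hist1h1c stood between the sets, with 1.15 in f/f and 0.74 in d/d. In blood endothelium Hist1h2bc, Hist1h1c and Hist3h2a each had f/f ratios of 0.995 to 0.997, while in d/d Hist1h2bc differed by 0.88 and Hist1h1c by 0.62. There 11 of 14 measured members were higher in f/f (6.23% of all genes) and 7 of 8 in d/d (8.24%).

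Between the libraries, the stroma had linker and core sums that were lower in d/d while single members went both ways. Of 32 measured core members, 13 were higher in d/d and 8 lower, and of 5 linker members 0 were higher and 3 lower, where 15.5% of 12530 measured genes were higher and 19.8% lower. The median log2 difference was 0.35 over core members, -0.98 over linker members and -0.13 over all genes. H2A was at 176 CPM in f/f and 140 in d/d, H2B at 104 and 70.6, H3 at 20.5 and 26.4 and H4 at 37.2 and 36.7. The core difference of -0.31 (-0.36 to -0.25) rested on Hist1h2ap, since without it core histones stood at 248 and 256 CPM, a difference of 0.04 (-0.01 to 0.10).

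Hist1h1c, the linker gene with the most UMIs, was lower, with 16.7 CPM in f/f and 7.61 in d/d, a log2 difference of -1.14 (-1.46 to -0.82). Hist1h1b stood at 12.3 and 6.23 (-0.98, -1.34 to -0.64) and Hist1h1a at 3.37 and 1.69. Hist1h1e (11.5 and 10.1) and Hist1h1d (3.40 and 3.38) had intervals that included no difference. The other linker gene, Hist1h1t, had 6 UMIs in all kept cells.

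The H2A genes were split. Hist1h2ap was at 90.2 CPM in f/f stroma and 17.5 in that of d/d (-2.36, -2.56 to -2.17), and Hist3h2a at 31.3 and 14.2 (-1.14). Hist1h2ae was at 41.8 and 89.3 (1.09, 0.98 to 1.21). The less abundant Hist1h2ab, Hist1h2af and Hist1h2an were also higher in d/d, at log2 differences of 1.11, 1.30 and 1.34. In H2B, Hist1h2bc stood at 86.3 and 49.0 (-0.82) and Hist2h2be at 3.34 and 0.846 (-1.98), while Hist1h2bn was higher by 1.12.

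In H3, Hist1h3c was higher in d/d stroma, at 2.78 CPM in f/f and 7.38 in d/d (1.41, 0.98 to 1.83). Hist2h3c2, 62.0% of whose windows occur in other genes, was lower at 2.37 and 0.615 (-1.94, -3.20 to -0.90). Among H4 genes, Hist1h4d stood at 11.7 and 11.6 CPM and Hist1h4i at 10.1 and 9.76, while Hist1h4h was lower by a log2 difference of -0.63. Hist4h4, the single H4 gene on chromosome 6, was at 1.27 and 2.69 (1.08, 0.39 to 1.76).

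**Figure D2:**
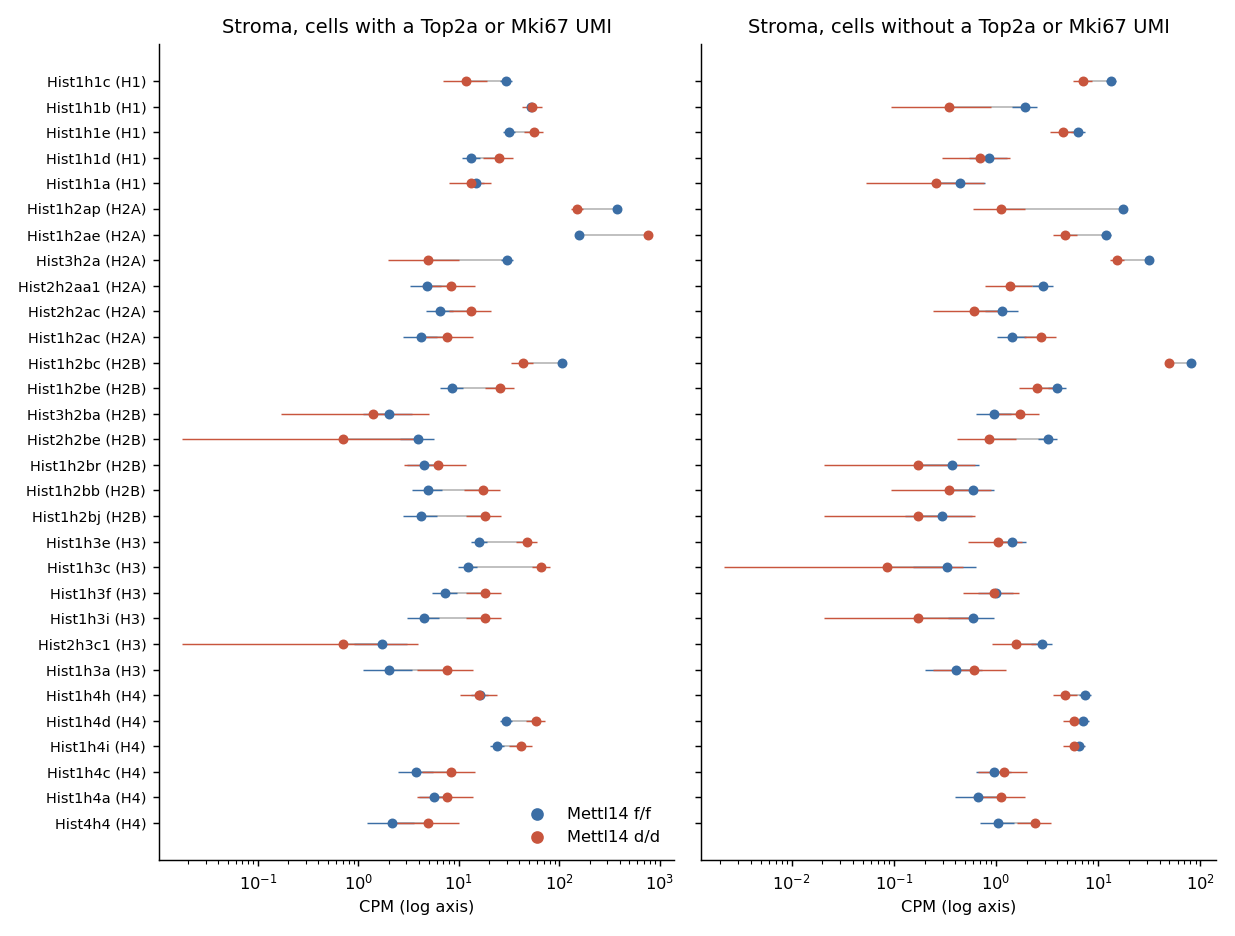
CPM (x axis, log scale) of the 30 named members (y axis, by histone family) in stromal cells with (left) and without (right) a Top2a or Mki67 UMI, with points for the libraries and 95% intervals as bars. Hist1h2ae lies at 158 in f/f and 771 in d/d on the left, while Hist1h2ap and Hist1h2bc are lower in d/d on both sides.

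The 2 kinds of stromal cell differed from each other in this comparison. Among cells with Top2a or Mki67 (733 and 114 cells), core histones were higher in d/d, at 894 and 1565 CPM (0.81, 0.74 to 0.88). Linker histones were at 142 and 159 (0.17, -0.05 to 0.38), an interval that included no difference. H2A stood at 598 and 1053 CPM, H2B at 152 and 176, H3 at 57.0 and 185 and H4 at 86.6 and 151. H3 thus had the widest log2 difference of the families, 1.70 (1.47 to 1.92).

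Of 21 measured core members in these cells 16 were higher in d/d and 3 lower, and of 5 linker members 2 were higher and 1 lower, beside 13.1% and 21.6% of all measured genes. Hist1h2ae was at 158 CPM in f/f and 771 in d/d (2.29, 2.17 to 2.41), Hist1h3c at 12.3 and 66.2 (2.43) and Hist1h3e at 15.9 and 47.4 (1.57). The linker gene Hist1h1e was at 31.4 and 55.7 (0.83), and Hist1h1b at 52.6 and 53.6. Lower in d/d were Hist1h2ap at 373 and 150, Hist1h2bc at 107 and 43.2, Hist3h2a at 29.9 and 4.87 and the linker gene Hist1h1c at 29.6 and 11.8. Of these, Hist1h2bc and Hist3h2a had not been called in either direction between the kinds of cell in f/f.

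Among stromal cells without Top2a or Mki67 (3974 and 1591 cells), both sums were lower in d/d. Linker histones were lower by a log2 difference of -0.83 (-1.10 to -0.57) and core histones were at 196 and 113 CPM (-0.79, -0.88 to -0.70). Of 16 measured core members 2 were higher and 10 lower, beside 15.6% and 19.5% of all genes. Hist1h2ap was at 17.5 and 1.12 CPM, Hist1h2bc at 81.0 and 49.8 and Hist3h2a at 31.7 and 15.4. The members higher in d/d were Hist1h2ac, at 1.45 and 2.77, and Hist4h4, at 1.04 and 2.42.

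Cluster 12, in which 93.6% of 361 cells from f/f and 96.0% of 50 from d/d held Top2a or Mki67, had core histones at 1410.1 CPM in f/f and 2869 in d/d (1.02, 0.95 to 1.10) and linker histones at 228 and 283. There 16 of 23 measured members were higher and 4 lower (12.8% and 24.3% of all genes), with Hist1h2ae at 276 and 1501 and Hist1h3c at 21.4 and 127. Cluster 4, with 346 f/f cells of which 6.07% held Top2a or Mki67 and 507 d/d cells of which 0.394% did, had core histones at 145 and 102 CPM and linker histones at 24.5 and 18.6, an interval of the log2 difference from -1.08 to 0.28. H4 stood higher in d/d there, at 16.3 and 28.5. Of its 3 measured members 0 were higher and 2 lower (12.3% and 14.6% of all genes). The clusters were made from all variable genes, histones included.

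The comparison of S-led with M-led cycling cells gave unlike results with and without thinning, and its values are unthinned unless stated. Among the cells with Top2a or Mki67, those with more UMIs of 20 S genes than of 18 M genes were set against those with more M-gene UMIs. In f/f stroma core histones stood at 964 CPM in 325 S-led and 913 in 308 M-led cells (log2 difference 0.08, 0.00 to 0.15), and linker histones at 148 and 152. In d/d stroma core histones stood at 1363 in 71 and 1792 in 37 cells (-0.39, -0.52 to -0.27). The split itself was seen in Slbp, the stem-loop binding protein, at 136 and 60.3 CPM in f/f stroma. Cenpa, the centromeric H3 variant made late in the cycle, stood at 13.7 and 303, but it is 1 of the M genes, so the split fixed its direction. The difference between libraries was present in each phase, with core ratios of d/d over f/f of 1.41 in S-led and 1.96 in M-led stromal cells. After thinning to 2000 UMIs the f/f stromal difference was 0.73 and that of d/d stroma turned to 0.19. In f/f blood endothelium core histones stood at 1070 CPM in 99 S-led and 1648 in 85 M-led cells, and this difference also turned after thinning.

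Hist1h2ap and Hist1h2ae, the 2 H2A genes with the most UMIs, stood in opposite order by their UMI counts in the 2 libraries in each class listed here. Over all kept cells f/f held 6561 UMIs of Hist1h2ap and 3230 of Hist1h2ae, and d/d held 556 and 2433. The ratio of Hist1h2ap to Hist1h2ae was thus 2.03 (1.95 to 2.12) in f/f and 0.229 (0.208 to 0.251) in d/d. It was 2.16 and 0.196 in stroma, 1.74 and 0.185 in pericytes, 1.93 and 0.253 in blood endothelium and 1.96 and 0.328 in epithelium. Smooth muscle (3.33 and 0.160), dendritic cells (1.31 and 0.111), T cells (1.31 and 0.333) and natural killer or innate lymphoid cells (2.12 and 0.221) had the same order. The f/f intervals of dendritic cells (0.98 to 1.76) and T cells (0.81 to 2.15) included 1. In f/f cells without Top2a or Mki67 both genes stood about level in pericytes (0.95, 0.48 to 1.88) and blood endothelium (0.96, 0.55 to 1.70), and the ratio was 1.46 (1.26 to 1.69) in stroma.

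**Figure D3:**
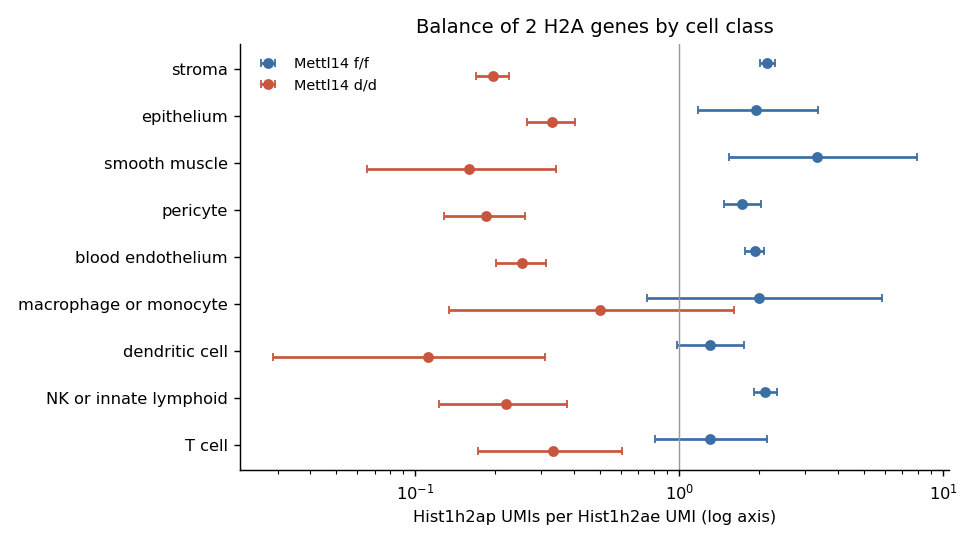
Ratio of Hist1h2ap to Hist1h2ae UMIs (log axis) by cell class (y axis) and library (colours), with 95% intervals as bars. The f/f points lie between 1.31 and 3.33 and the d/d points between 0.111 and 0.5.

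Blood endothelium had this opposite order too, at a Mettl14 level of 18.7 CPM in f/f and 18.3 in d/d. In macrophages or monocytes the ratio rested on 14 and 7 UMIs in f/f against 5 and 10 in d/d, with overlapping intervals. All of the last windows of Hist1h2ap occur in other genes, and the part of read assignment in this ratio was not tested. The sum of both genes was 132 CPM in f/f stroma and 107 in that of d/d, so that the pair differed less there than either gene did. That was not so in blood endothelium, with a sum of 535 and 112 CPM and Hist1h2ae at 182 and 89.7. In pericytes the sum was 321 and 49.4 and Hist1h2ae 117 and 41.7. In epithelium the sum was 32.8 and 119 and Hist1h2ap 21.7 and 29.5.

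In epithelium the core sum over all its cells differed little between the libraries while its families went apart. Core histones were at 485 CPM in f/f and 443 in d/d (-0.13, -0.24 to -0.02) and linker histones at 92.0 and 83.5. H2B was lower in d/d, at 327 and 113 CPM (-1.54), while H2A (74.0 and 154), H3 (40.7 and 70.5) and H4 (43.0 and 107) were higher. Without the 19 deep d/d cells, described below, the core difference was -0.89 and neither H2A (-0.40) nor H3 (-0.17) was higher. Of 14 measured members 7 were higher and 3 lower, beside 15.5% and 24.0% of all genes. Without the 19 deep d/d cells these were 6 and 4 of 12, beside 14.0% and 24.3%.

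The 3 lower members in epithelium were Hist1h2bc, at 306 CPM in f/f and 68.8 in d/d (-2.15, -2.36 to -1.95), Hist1h1c at 65.2 and 15.8 and Hist3h2a at 25.4 and 4.56. Hist1h2bc alone gave 662 of the 1048 core UMIs of f/f epithelium. Higher in d/d were Hist1h2ae at 11.1 and 89.96 (3.02, 2.42 to 3.68), Hist1h1b at 2.77 and 25.7 (3.21) and Hist1h4d at 6.47 and 28.8 (2.15). Hist1h3c had 0 UMIs in f/f against 63 in d/d, which is at least 10.9-fold higher with the f/f count set to 3 over the class.

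The epithelial values depended on the 19 deep d/d cells, which had a median of 37759 UMIs and a core level of 1352 CPM. Without them core histones were at 262 CPM in d/d (-0.89, -1.02 to -0.76) and linker histones at 55.8 (-0.72), H2A was lower than in f/f at 56.1 (-0.40), H3 went from 0.79 to -0.17 (-0.57 to 0.24), H4 from 1.31 to 0.78 and Hist1h2ap from 0.44 to -1.28. These cells held all but 9 of the 63 Hist1h3c UMIs, and without them its difference was at least 1.87-fold. Hist1h2ae (1.39), Hist1h1b (2.22), Hist1h2bc (-2.11) and Hist1h1c (-2.30) kept their directions. The d/d epithelium lay mostly in sub-cluster 0 (127 cells) and the f/f epithelium in sub-clusters 2 and 3 (105 and 73 cells), so state and library coincide. The epithelial marker sum was 7532 CPM in f/f against 6003 in d/d, and the stromal one 513 and 170.

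**Figure D4:**
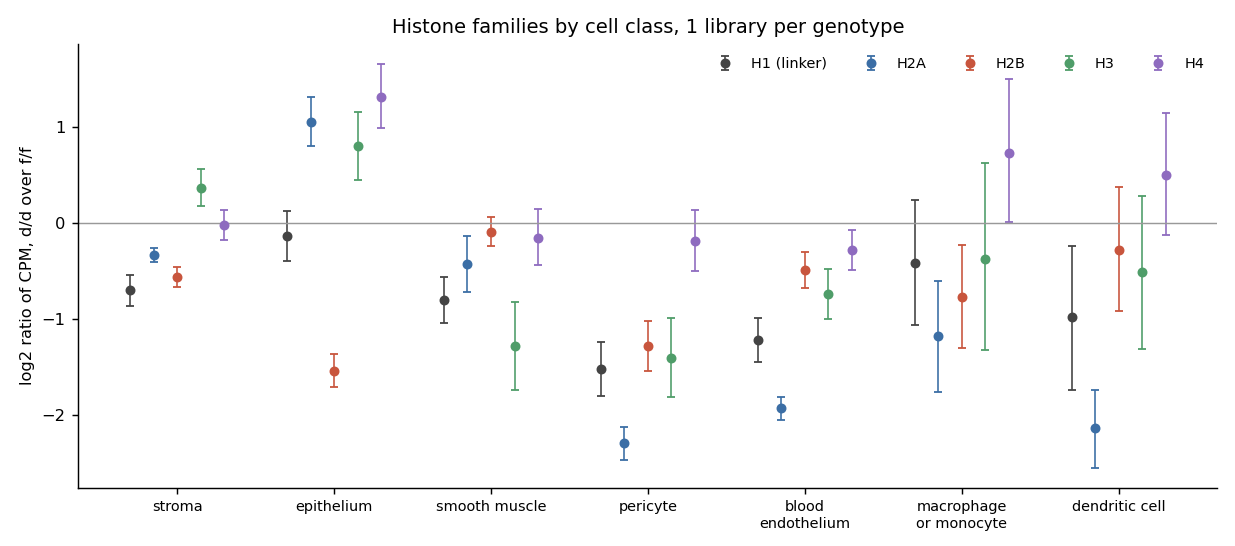
Log2 ratio of d/d over f/f CPM (y axis) for the linker, H2A, H2B, H3 and H4 sums (colours) in each compared class (x axis), with 95% intervals as bars. H2A lies lowest in pericytes (-2.29) and dendritic cells (-2.13), and H2A and H4 lie above 1 in epithelium, where without the 19 deep d/d cells they were at -0.40 and 0.78.

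In smooth muscle, with few cycling cells, H2B was the family with the most UMIs, 452 of the 970 UMIs of all members in the f/f library and 1893 of 3447 in that of d/d, as it was in f/f epithelium with 707 of 1247. It stood at 231 CPM in f/f and 217 in d/d (-0.09, -0.24 to 0.06), of which Hist1h2bc gave 204 and 171. Linker histones were at 102 and 58.3 (-0.80, -1.04 to -0.56), nearly all of it Hist1h1c at 89.6 and 47.1, and H3 was at 32.8 and 13.4. Of 13 measured members 2 were higher and 5 lower, beside 10.7% and 16.5% of all genes. In the few smooth muscle cells with Top2a or Mki67, 1 member was measured and was not called, where 14.9% of all genes were higher and 15.4% lower. Hist3h2ba, an H2B gene next to Hist3h2a on chromosome 11, was at 9.22 and 31.7 CPM (1.78, 1.09 to 2.56), and Hist2h3c2 at 17.4 and 2.53 (-2.78). Stromal markers summed to 3294 CPM in f/f and 2257 in d/d smooth muscle, with none of the 11 at 0, and their part in these values was not tested.

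Pericytes had the lowest core ratio of the compared classes, at 617 CPM in f/f and 199 in d/d (-1.63, -1.75 to -1.51), and linker histones were at 113 and 39.4. Of 12 measured members 0 were higher and 9 lower, beside 13.0% and 25.2% of all genes, with Hist1h2ap at 204 and 7.73 and Hist1h1b at 32.4 and 4.06. Within the 91 f/f and 36 d/d pericytes with Top2a or Mki67, core histones were at 1386 and 1465 CPM (0.08, -0.09 to 0.25), and within the cells without at 170.5 and 127 (-0.42). The 6 members measured in the cells with these UMIs had 2 higher and 2 lower, beside 11.7% and 23.4% of all genes. The share of cells with these UMIs, 24.0% and 3.02%, moved with the class sum. The class also lay in different clusters, with 278 of the 379 f/f cells in cluster 13, and 649 and 442 of the 1194 d/d cells in clusters 7 and 10. Within cluster 13 core histones stood higher in d/d, at 708 and 820 CPM (0.21, 0.05 to 0.37), and within clusters 7 (-0.32) and 10 (-0.06) the intervals included 0. Cells with Top2a or Mki67 were 32.0% (f/f) and 15.5% (d/d) of cluster 13, 1.85% and 2.16% of cluster 7 and 2.13% and 1.36% of cluster 10. The linker intervals included 0 in all 3 clusters. Pericyte markers summed to 11641 CPM in f/f and 6285 in d/d, smooth muscle markers to 5853 and 8611, and their part was not tested.

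Blood endothelium had core histones at 884 CPM in f/f and 361 in d/d (-1.29, -1.37 to -1.21), with H2A furthest apart at 600.5 and 158. Of 20 measured members 3 were higher and 12 lower, beside 11.3% and 11.8% of all genes. Within cells with Top2a or Mki67 the core difference was -0.49 (-0.58 to -0.39), and without Hist1h2ap it was 0.19 (0.08 to 0.30), while within cells without it was -0.44 (-0.64 to -0.25). Of 15 measured members in the cells with these UMIs, 0 were higher and 6 lower, beside 10.0% and 10.9% of all genes. Hist1h1b was at 58.5 and 31.8 CPM and Hist1h2ae at 296 and 330 in the cells with these UMIs. Higher in d/d over the whole class were Hist4h4 at 2.39 and 8.20, Hist1h2be at 4.57 and 8.83 and Hist1h4c at 4.57 and 7.36, the last with an interval that included 0. The blood endothelial marker sum was 4898 CPM in f/f and 5841 in d/d.

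Dendritic cells (168 and 151 cells) had core histones at 564 and 264 CPM (-1.10, -1.35 to -0.84), and in the cells without Top2a or Mki67 they differed by 0.11, with an interval that included 0. With TMM, which added 0.39, the core difference was -0.70. Markers of natural killer or innate lymphoid cells summed to 12.0 CPM in f/f dendritic cells, with 6 of 10 at 0, against 264 in d/d, with 2 at 0, and smooth muscle markers to 180 and 719, and their part was not tested. Hist1h2ap (110 and 4 UMIs) and Hist1h2ae (84 and 36 UMIs) were the 2 members measured, and 0 of 2 were higher and 2 lower, beside 12.8% and 25.1% of all genes. Among dendritic cells with Top2a or Mki67, core histones were at 1987 and 667 CPM, and the same 2 members were lower, beside 19.9% of all genes higher and 18.0% lower. In macrophages or monocytes core histones were at 219 and 154 CPM (-0.51, -0.81 to -0.19) and linker histones at 52.2 and 39.0. Of 2 measured members 0 were higher and 1, Hist1h2bc, lower (17.8% and 27.6% of all genes), and with TMM 0 were lower. Stromal markers summed to 4261 CPM in f/f against 824 in d/d macrophages or monocytes, with none of the 11 at 0, and their part was not tested. H4 in macrophages or monocytes was at 31.3 CPM in f/f and 51.7 in d/d. In the macrophages or monocytes without Top2a or Mki67, 0 of 2 measured members were higher and 1 lower, beside 17.4% and 25.9% of all genes.

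Genes that act on histone RNA or carry its products were described from other lists, each by its measured members in whole stroma, where 15.5% of all measured genes were higher in d/d and 19.8% lower. Of 12 replacement variants 2 were higher in d/d, H2afj at 135 and 244 CPM and H3f3b at 655 and 1001, and 3 lower, H2afv at 302 and 201, H2afx at 68.1 and 38.7 and Cenpa at 34.1 and 16.8, which are shares near those of all genes. H2afz and H3f3a, at 722 and 773 CPM in f/f, differed by 0.05 and 0.16. Single replacement variants thus gave more UMIs than the cluster genes together, with 95802 for H3f3b in all kept cells. Of 22 histone RNA processing genes 1 was higher and 3 lower, each a smaller share than over all genes. Lsm10, a subunit of the U7 particle that cuts histone RNA, was at 22.0 and 74.0 CPM (1.75), and Cpsf1, Cpsf3 and Ncbp1 had differences of -0.76, -0.75 and -0.76.

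The same background of 15.5% and 19.8% applies to the remaining lists. Of 21 histone chaperone genes 0 were higher and 3 lower, with Nap1l1 at 599.5 and 353 CPM, and of 14 transcription factor genes of histone promoters 0 were called in either direction. Among S genes 2 of 20 were higher, Pcna at 63.6 and 97.9 and Gins2 at 8.82 and 14.1, and 5 lower. Of 18 M genes 0 were higher and 17 lower. Of 8 p53 and arrest genes 4 were higher and 0 lower, among them Cdkn1a, an inhibitor of cyclin-dependent kinases, at 15.9 and 260.1 CPM. Within stromal cells with Top2a or Mki67, 9 of 20 S genes were higher and 0 lower, 1 of 18 M genes was higher and 9 lower, and 6 of 14 transcription factor genes were higher and 0 lower, beside 13.1% and 21.6% of all genes.

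The genes most like the 3 members with the most UMIs were found by Spearman's correlation of CPM over 16 library and class combinations, among 10775 genes. They share libraries and classes, and the correlations are descriptions. For Hist1h2ap they were Ncapd2 (0.947), Selenoh, Kif15, Cdc20 and Lig1, and for Hist1h2ae Birc5 (0.956), Ube2c, Spc24, Kif15 and Haus6. Hist1h2bc was most like Hsd17b4 (0.947), Fsd1l, Suclg2, Ndufa11 and Ndufs6. No gene was among the closest 5 of both Hist1h2bc and either H2A gene, while Kif15 was among those of both H2A genes.

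Some less abundant members differed over the whole libraries. Over all kept cells Hist3h2ba (1.91 CPM in f/f and 9.18 in d/d), Hist4h4 (1.5 and 4.19) and Hist1h4c (2.12 and 4.94) were higher in d/d. Hist1h2br (4.13 and 1.51) was lower. The 12 further members with at least 100 UMIs had at most 218 each. Members with 1 to 90 UMIs comprised 1 H1, 7 H2A, 4 H2B, 3 H3 and 6 H4 genes.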

How the data were processed

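The 2 libraries were made with 10x Chromium 3′ v3 chemistry, per the labels. The authors deposited whole-number UMI counts per gene and barcode, with Cell Ranger 3.0.1 and mm10 per the submitters' processing notes, while the file headers name cellranger 6.0.1. Barcodes with at least 1000 UMIs, 500 genes and at most 20% mitochondrial UMIs were kept. The highest Scrublet scores (0.8% per 1000 cells) were removed, 533 f/f and 355 d/d barcodes, since the caller's automatic threshold marked 0 barcodes of f/f but 400 of d/d. Cells were clustered (Python 3.11.15, scanpy 1.11.5, leidenalg 0.10.2, Leiden resolution 1) and clusters named by marker genes. An epithelial sub-cluster (100 cells from f/f, 18 from d/d) with endothelial and stromal RNA was set aside. Counts were summed per library and class and given as CPM. Ratios have conditional exact, levels Poisson and shares Clopper-Pearson 95% intervals (scipy 1.17.1), and a count of 0 was set to 3. Comparisons needed 100 cells of a class per library and 20 cells per split group. The ratio of Hist1h2ap to Hist1h2ae was also given for T cells and natural killer or innate lymphoid cells, which had fewer in 1 library. Named members were those with at least 100 UMIs, up to 30, in order of UMIs, and others named were chosen after their values were seen. Scaling by edgeR 4.0.16 TMM (R 4.3.3), other filters, thinning and other splits were tried. The steps were tested on simulated data. The members and gene lists were chosen with earlier results of these data known.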

Additional observations from a re-analysis of the deposited data

How the results depend on the processing

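Of 499 alternative values, 312 were classed as the same, which for a difference is a move of less than its counting interval. A further 178 were classed as moved and 9 as reversed. These 9 are not all the changes of sign, since differences with an interval that included 0 also turned, such as the epithelial linker difference with TMM. Cluster 4 alone, core without Hist1h2ap, the split by Mki67 alone, single pericyte clusters, and epithelium without its deepest sub-cluster or with the sub-cluster set aside were chosen after seeing the data. No paired analysis was possible because each genotype has 1 library and both carry only the number 1. The core difference of d/d over f/f in stroma (-0.31) was -0.79 in cells without Top2a or Mki67, -0.56 as a mean over cells, -0.51 in the shared cluster 4 and 0.044 without Hist1h2ap, and the linker difference (-0.70) was -0.40 in cluster 4. The 13 members higher in d/d stroma (15.5% of all genes) became 2 in cells without Top2a or Mki67 (15.6%). They became 23 with no minimum beyond 1 UMI in each library and 7 at a 2-fold call. The 11 lower (19.8%) became 5 at 2-fold. Shares over all genes are not given for the setting without a minimum and the 2-fold call. In cluster 4 only 3 members were measured, of which 0 were higher and 2 lower (12.3% and 14.6% of all genes). In cluster 12, 16 of 23 were higher and 4 lower (12.8% and 24.3%). In epithelium the core difference (-0.13) turned to 0.073 with TMM and 0.057 without mitochondrial and ribosomal protein genes, and was -1.07 in cells without Top2a or Mki67 and -0.89 without the deepest sub-cluster. Its linker difference (-0.14) was -1.03, -0.40 as a mean over cells and -0.72 in turn. In blood endothelium the core difference (-1.29) was -1.19 with doublets kept, -0.44 in cells without Top2a or Mki67, -1.20 as a mean over cells and -0.65 without Hist1h2ap, and the linker difference was -0.66 in cells without. The dendritic core difference (-1.10) turned to 0.11 in cells without.

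For cells with against without Top2a or Mki67, a minimum of 2 UMIs, thinning, Mki67 alone and a mean over cells gave in turn 2.70, 2.44, 2.46 and 2.01 for f/f stroma core, 3.11, 2.89, 2.81 and 2.38 for its linker sum, and 4.22, 3.95, 4.00 and 3.54 for d/d stroma core. The d/d stroma linker sum gave 4.03 with 2 UMIs and 2.99 as a mean over cells. Blood endothelium gave 3.10, 2.38 with Mki67 alone and 2.92 as a mean over cells for f/f core, 2.34 and 2.48 thinned for f/f linker, and 3.04 and 3.17 thinned for d/d core. The d/d macrophage linker value (-2.73, 1 UMI in the cells with) turned to 0.48 with doublets kept. For S-led against M-led cells, thinning changed the f/f stroma core value from 0.08 to 0.73 (0.20 with at least 2 more UMIs) and turned d/d stroma core from -0.39 to 0.19 and linker from -0.42 to 0.86. In f/f blood endothelium it turned core from -0.62 to 0.18 and linker from -0.39 to 0.30.

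Shares of stromal cells moved with depth. Core histone shares were 19.1% (f/f) and 13.3% (d/d) at 1000 UMIs and 67.5% and 50.1% with all UMIs, and linker shares 3.57% and 2.46%, and 17.4% and 11.1%. Shares with Top2a or Mki67 were 15.6% and 6.69% with all UMIs, and 3.57% and 1.69% with at least 2 UMIs. The cause of these changes was not tested, beyond the fewer cells or UMIs that an alternative leaves. The median of all genes and the shift that TMM added were -0.13 and 0.05 for stroma, -0.14 and 0.20 for epithelium, -0.13 and 0.18 for smooth muscle, -0.21 and 0.24 for pericytes, -0.05 and 0.04 for blood endothelium, -0.19 and 0.46 for macrophages or monocytes and -0.21 and 0.39 for dendritic cells. Members of few UMIs and cells of few UMIs limit every value per member, and 1 library per genotype allows no replicate check.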
